A study of Drosophila melanogaster with 4 samples.

Results

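RNA polymerase II (Pol II) regions were described along most of 2L, the left arm of the second chromosome of *Drosophila melanogaster*. A region was included when it lay on 2L and its midpoint was at least 2 Mb from the right end of the arm sequence, where the centromere lies. That limit left a stretch of 21.0 Mb, 2L:1-21011544 on FlyBase release 5, and 1612 of the 9885 regions listed for the series as a whole (16.3%). The choice used position alone, and no width, score or overlap. The same rule gave 851 of 5192 regions in replicate 1 and 861 of 5199 in replicate 2. The stretch is meant to hold the euchromatin of the arm, the open and gene-rich part. The lists carry no chromatin mark, so that name rests on distance from the centromere alone.

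The study mapped Pol II by ChIP-seq, the sequencing of DNA recovered with an antibody, in whole embryos aged 14 to 16 h. All 4 samples came from wild-type Oregon-R embryos, fixed in 1.8% formaldehyde, with 2 ChIP libraries made with an abcam antibody to Pol II and 2 input libraries of chromatin DNA. Whole embryos mix all tissues, so a region in many cells with little Pol II and a region in few cells with much of it cannot be told apart. The labels do not say whether the replicates came from separate embryo collections, and spreads between them may be technical.

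Pol II transcribes protein-coding genes and many non-coding RNAs. In *Drosophila* embryos it commonly gathers just downstream of transcription start sites, where it pauses before elongation, and ChIP then shows a short peak. Over strongly transcribed genes it also covers the gene body, and ChIP shows a broad domain. The lists give each region's first and last base and the authors' score, which behaves as the log2 of a ratio. What stands in its denominator is unstated. Positions were not assigned to genes, because the gene table used here belongs to release 6 and no coordinates were moved between releases. With depth unknown, a stretch free of regions may have had no Pol II or too few reads.

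In stretches of 5 Mb, Pol II regions were denser over the first 10 Mb of 2L than over the next 10 Mb, by more than the spread between replicates. The first 5 Mb held 45.6 and 43.2 regions per Mb in replicates 1 and 2, a mean of 44.4 ± 1.7 (SD, n = 2). The next 5 Mb were densest, with 49.6 and 51.8 per Mb (50.7 ± 1.6, SD, n = 2). From 10 to 15 Mb there were 34.4 and 35.4 per Mb (34.9 ± 0.7, SD, n = 2), and from 15 to 20 Mb 32.4 and 33.4 (32.9 ± 0.7, SD, n = 2). The densities of the first 10 Mb therefore lay above those of the next 10 Mb in both replicates. The last 1.01 Mb before the limit rose again to 40.5 and 41.5 per Mb. Density was uneven within the stretch from 15 to 20 Mb. Its 500 kb windows ran from a replicate mean of 6.5 regions at 2L:17500001-18000000 to 26.0 at 2L:18500001-19000000. From 2L:18500001 to 2L:21000000 each window held a replicate mean of 20.5 to 26.0 regions, so the low density did not reach the limit. In the whole-series list the 5 stretches held 86.6, 86.6, 73.2, 58.8 and 85.0 regions per Mb. Over the whole stretch this list had 76.7 regions per Mb and the replicates 40.7 ± 0.3 (SD, n = 2).

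In the whole-series list broad regions were more numerous on the first 10 Mb than on the next 10 Mb, while median width and score hardly varied along the arm. Regions wider than 5 kb numbered 25 in the first 5 Mb, or 5.0 per Mb, and 22, or 4.4 per Mb, in the next. From 10 to 15 Mb there were 12 (2.4 per Mb) and from 15 to 20 Mb 13 (2.6 per Mb), and the last 1.01 Mb held 6 (5.93 per Mb), the highest rate of the 5 stretches. Median widths of the 5 stretches ran from 1840 to 1994 bp and median scores from 0.45 to 0.47. The regions of the highest decile by score numbered 45, 47, 28, 33 and 9 from the telomere inwards, among 433, 433, 366, 294 and 86 regions. Counts of broad and of high-scoring regions thus also depend on how many regions a stretch held. These values come from a single list and have no replicate spread.

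**Figure D1:**
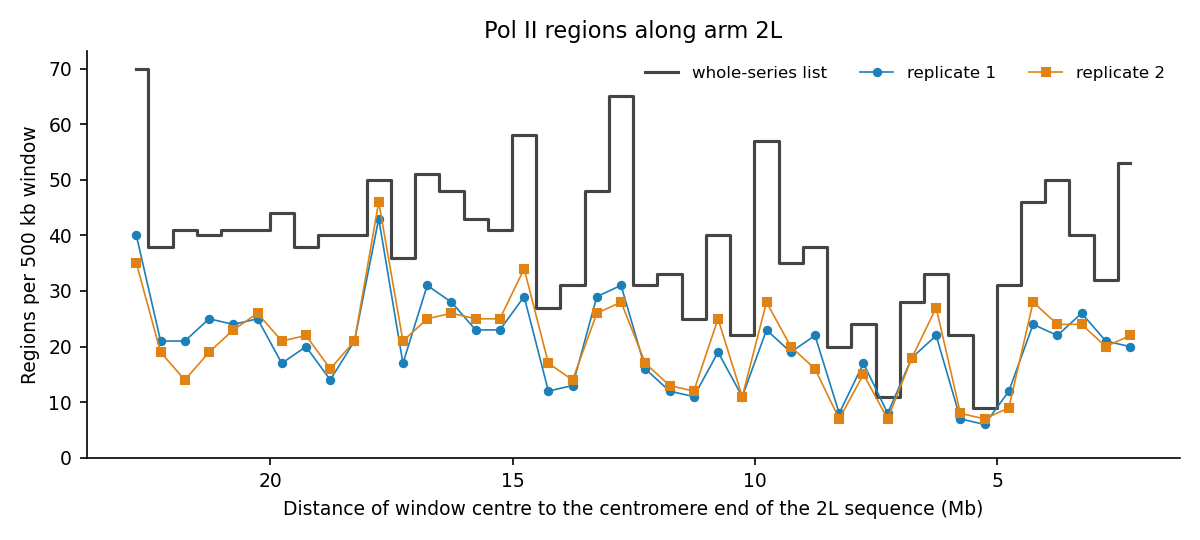
Number of Pol II regions in each of 42 windows of 500 kb along 2L, against the distance of the window centre to the centromere end of the arm sequence in Mb. The step line is the whole-series list and the points are replicates 1 and 2, which rise and fall together and differ by at most 7 regions in any window.

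On the scale of 500 kb, the densest window held several times as many regions as the sparsest in both replicates. It was 2L:5000001-5500000, with 43 regions in replicate 1 and 46 in replicate 2, against 50 for the whole series. The telomere-side window 2L:1-500000 followed with 40, 35 and 70, the highest count of the whole-series list. Next by replicate mean came 2L:8000001-8500000 with 29, 34 and 58, 2L:10000001-10500000 with 31, 28 and 65, and 2L:6000001-6500000 with 31, 25 and 51. The order in the whole-series list was thus another one. All of these windows stood above the median window, which held 21 regions in each replicate and 40 in the whole-series list.

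The 5 sparsest windows by replicate mean all lay between 2L:14500001 and 2L:18500000. That span was not sparse throughout, and its windows 2L:16000001-16500000 and 2L:16500001-17000000 held replicate means of 18.0 and 24.5. The window 2L:17500001-18000000 held 6 and 7 regions in replicates 1 and 2, against 9 for the whole series. The window 2L:15500001-16000000 held 8, 7 and 11. The windows 2L:14500001-15000000 and 2L:17000001-17500000 held 8 and 7, and 7 and 8, with 20 and 22 in the whole-series list. The fifth, 2L:18000001-18500000, held 12, 9 and 31. A sparse window could still hold a strong region. The scores that ranked 3 and 4 on the stretch, 1.75 and 1.72, came from 2L:15500001-16000000 and 2L:17000001-17500000.

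Window counts of the replicates moved together. Across the 42 full windows the Spearman rho of their counts was 0.88 and the Pearson r 0.92, given as a description, since neighbouring windows share libraries and are not independent. In 29 windows the replicates differed by at most 3 regions, and in 3 they were equal. The ratio of the whole-series count to the replicate mean varied between windows. It was 1.12 in 2L:5000001-5500000, the window densest in both replicates. Broad whole-series domains there each overlapped several replicate regions, and 11 of its 50 whole-series regions overlapped neither replicate. The ratio thus does not count added regions alone. Its median over windows was 1.85, and in 2L:18000001-18500000 it was 2.95.

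Spacing along 2L was uneven, with many close neighbours and a few long empty stretches. The median gap between neighbouring regions was 3710 bp in the whole-series list (binomial 95% interval of the median 3348 to 4054). In the replicates it was 10004 and 10464 bp, a mean of 10234 ± 326 (SD, n = 2). Of the 1611 whole-series gaps, 212 (13.2%) were at most 500 bp and 353 (21.9%) at most 1 kb. At the other end, 240 gaps (14.9%) were longer than 20 kb and together made up 64.1% of all gap bases. In the replicates 32.9% and 33.8% of gaps were longer than 20 kb and held 80.4% and 80.3% of gap bases.

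**Figure D2:**
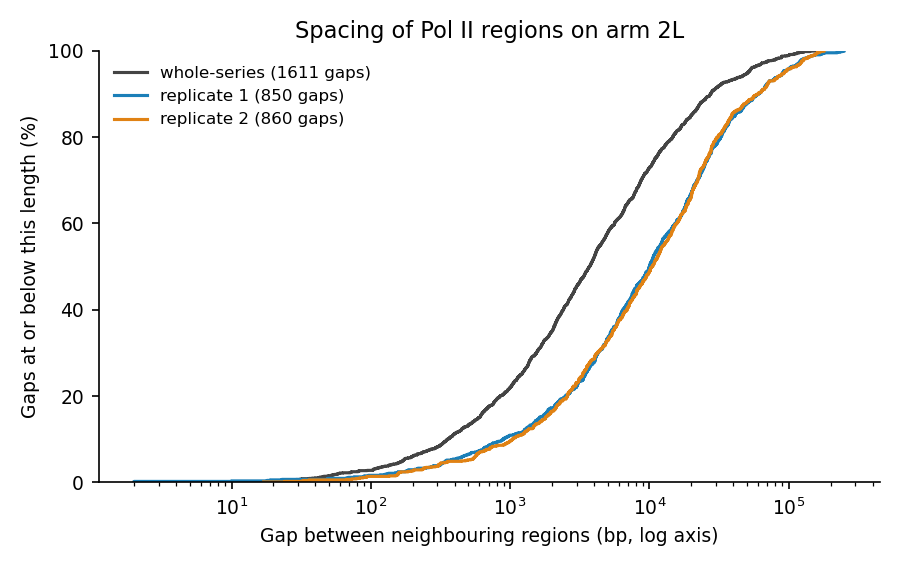
Share of gaps at or below each length (percent) against the length of the gap between neighbouring Pol II regions on 2L, in bp on a log axis, for the whole-series list and both replicates. The replicate curves lie on each other, with medians of 10004 and 10464 bp, and the whole-series curve lies to their left, with a median of 3710 bp.

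The longest gap of the whole-series list was 156 kb, at 2L:16974088-17130075. It was followed by 142 kb at 2L:15765727-15908191, 141 kb at 2L:19200442-19341752, 128 kb at 2L:15553797-15682221 and 128 kb at 2L:8544477-8672567. No region of either replicate lay wholly inside any of these 5 gaps. The gaps 2L:15765727-15908191 and 2L:15553797-15682221 lay in the sparse window 2L:15500001-16000000. The longest gap reached from 2L:16500001-17000000, which was not sparse, into the sparse window 2L:17000001-17500000. In all, 17 whole-series gaps were longer than 100 kb, against 36 in each replicate, where the longest measured 250333 bp in replicate 1 and 179921 bp in replicate 2.

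Close neighbours formed short runs. With regions at most 1 kb apart joined, 604 of the 1612 regions fell into 251 runs of at least 2, of which 79 had at least 3 and 19 at least 4. The run with most members was 2L:20787500-20803032, with 6 regions over 15.5 kb, of which both replicates overlapped 2 and neither overlapped 4. Of the 2 runs with 5 regions, 2L:6463439-6484758 was filled to 94.3% of its 21.3 kb, and both replicates overlapped 3 of its regions and neither overlapped 2. The other, 2L:203676-215366, was filled to 79.0% of its 11.7 kb, and both replicates overlapped 0 of its regions and neither overlapped 4. At the other extreme, 79 regions (4.90%) had more than 20 kb free on each side, and both replicates overlapped 45 of these.

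Most Pol II regions of 2L were short, and a minority of broad ones held much of the covered sequence. The median whole-series region was 1947 bp wide (binomial 95% interval 1904 to 1981), with the 10th and 90th percentiles at 1073 and 3804 bp. In the replicates the medians were 2033 and 2059 bp (2046 ± 18, SD, n = 2). Regions covered 17.5% of the stretch in the whole-series list and 9.28% and 9.48% in the replicates. Regions of at most 1.3 kb made up 24.8% of the whole-series list and 12.1% of its bases. Those wider than 3 kb were 275 in number and held 36.8% of bases.

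Regions of both replicates crowded into a narrow band of widths. In replicate 1, 266 of 851 regions (31.3%) were over 2.0 and up to 2.3 kb wide, and in replicate 2 311 of 861 (36.1%). The band from 2.4 to 2.7 kb, equally broad, held 42 (4.94%) and 36 (4.18%). Among the whole-series regions that both replicates overlapped, 220 of 652 (33.7%) fell in the 2.0 to 2.3 kb band and 57 (8.74%) in the wider one. Within the narrow band, scores of these 220 ran from 0.40 to 1.67 and rose with width, with a Spearman rho of 0.61. In the replicates the rho over the band was 0.64 and 0.67. From 2.4 to 2.7 kb it was 0.02 for the whole-series regions that both replicates overlapped, and -0.29 and -0.12 in the replicates. The limits of both bands were set after the widths had been seen, so these values are a description with no test. The caller and its window size are not given here, and their part in the band was not tested.

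**Figure D3:**
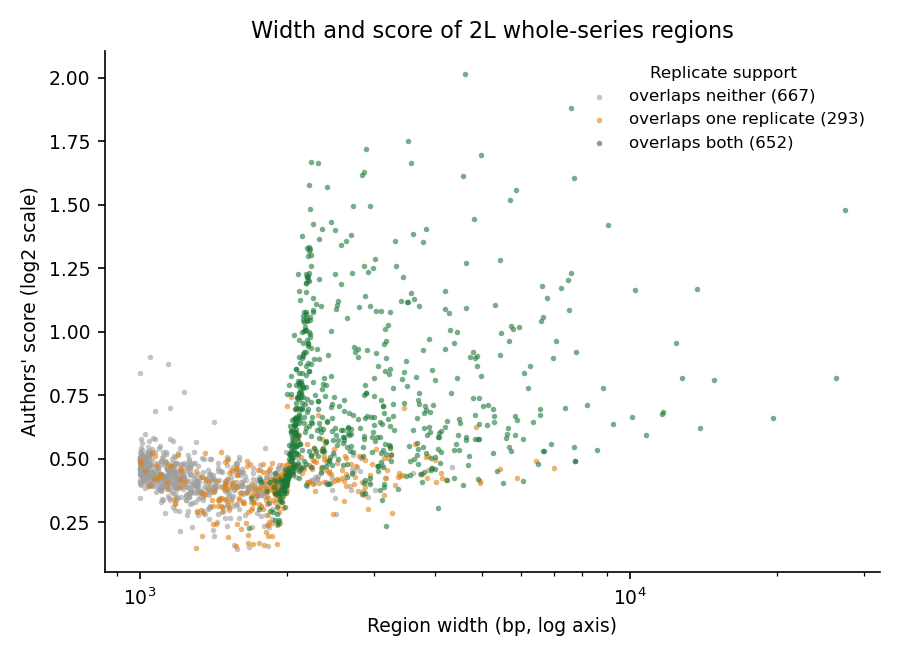
Authors' score (log2 scale) against width (bp, log axis) for each of the 1612 whole-series Pol II regions of 2L, coloured by the number of replicates that overlap it. Regions without a replicate gather below 2 kb and below a score of about 0.5, and a steep line of 220 regions that both replicates overlap stands between 2.0 and 2.3 kb.

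The broadest domains of 2L were up to 27.4 kb wide, and both replicates overlapped each of the 10 widest. The widest, 2L:16765264-16792663, was one unbroken region in replicate 1, 27191 bp wide with a score of 1.41, and in replicate 2, 27312 bp wide with a score of 1.56. It lay 181 kb before the longest gap and stood alone among the 10 in combining this width with a score among the 20 highest, at 1.48 in the whole-series list. Another of the 10 widest lay in the same 500 kb window, 2L:16704750-16717148, which was 12.4 kb wide and scored 0.96.

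Other broad domains overlapped several regions of at least one replicate. How the whole-series domains were formed is not given here. The second widest, 2L:1653127-1679513, was 26.4 kb wide and overlapped 6 regions in replicate 1 and 3 in replicate 2. Its neighbour 2L:1685937-1700804, 14.9 kb wide, overlapped 4 regions in replicate 1 and 1 region in replicate 2. A similar pair stood at 5.0 Mb, in the window densest in both replicates. There 2L:5008607-5028172, 19.6 kb wide, overlapped 3 and 5 replicate regions, and 2L:5043424-5057326, 13.9 kb wide, overlapped 4 in each. Scores of these 4 domains were moderate, from 0.62 to 0.82 in the whole-series list.

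The remaining 4 of the 10 widest were 11.6 to 13.7 kb wide with scores of 0.68 to 1.17. They were 2L:11999534-12013232, 2L:3055522-3068279, 2L:11564-23243 and 2L:18521134-18532766. The last was one region of 12284 bp in replicate 1 but one of 1378 bp in replicate 2, with scores of 0.93 and 0.53, so its breadth rested on one library. Over the whole stretch, 49 regions overlapped 2 or more regions of replicate 1 and 44 overlapped 2 or more of replicate 2. Their median widths were 6084 and 6556 bp, against 2240 and 2239 bp for regions that overlapped a single one. Wider regions can overlap more neighbours, so a difference in this direction follows from the overlap rule.

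Replicates 1 and 2 overlapped 49.0% and 50.1% of the 2L list, and many regions overlapped neither. Both replicates overlapped 652 of the 1612 regions (40.4%, Wilson 95% interval 38.1 to 42.9), against 37.8% of the series list as a whole. Only one overlapped 293 (18.2%, interval 16.4 to 20.1), against 21.1%, and neither overlapped 667 (41.4%, interval 39.0 to 43.8), against 41.1%. The share with neither on all chromosomes lay inside the interval for 2L, the share with both lay just below its interval, and the share with one above. The series list includes the 2L regions, and these differences were not tested. Replicate 1 overlapped 790 regions and replicate 2 overlapped 807, so the split was even. The whole-series list stands for the same libraries, and overlap with it is no independent evidence. Intervals cover counting error only.

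Regions that both replicates overlapped were wider and held more of the sequence. Their median width was 2450 bp, with an interquartile range of 2114 to 3612, and their median score was 0.65. They made up 2.14 Mb, or 58.1% of all bases in 2L regions. Regions that neither replicate overlapped had a median width of 1242 bp, from 1088 to 1571 between quartiles, and a median score of 0.43, and held 25.2% of bases. The narrowest region that both overlapped was 1668 bp wide. Among the 667 without a replicate, wider regions tended to score lower, with a Spearman rho of -0.40, while among the 652 with both it was 0.34. These correlations are across regions of one list and are given as a description.

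Support changed steeply with width. Of the 399 regions up to 1.3 kb wide, both replicates overlapped none, for which 3 counts of 399 allow a share of up to 0.752% and the Wilson interval one of up to 0.954%, and neither overlapped 375 (94.0%). No replicate region of the stretch was narrower than 1301 bp, whereas whole-series regions started at 1001 bp, and the part of this difference in the missing support was not tested. From 1.3 to 2 kb both replicates overlapped 13.9% of 482 regions, from 2 to 3 kb 76.8% of 456, and from 3 to 5 kb 81.7% of 197. Above 5 kb they overlapped 61 of 65 regions up to 10 kb and all 13 of the wider ones.

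Over score deciles, support changed in a step and not in a slope. Deciles are ranks of unequal span, and the second to sixth covered scores of 0.35 to 0.49 only. In each of the lowest 6 score deciles, up to 0.49, both replicates overlapped between 11.2% and 18.0% of regions. In the seventh decile, from 0.49 to 0.54, the share was 37.3% (Wilson interval 30.2 to 45.0). In the eighth, from 0.54 to 0.66, it was 85.7% (interval 79.5 to 90.3). In the ninth it was 93.2%, and in the highest decile both replicates overlapped all 162 regions. Median width rose over the same deciles, from 1442 bp in the sixth to 2032 bp in the seventh and 2502 bp in the eighth. The part of width in the step was not tested. The lowest decile differed from the next in having more regions with a single replicate, 42.2% against 26.7%, and fewer with none, 46.6% against 59.0%.

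**Figure D4:**
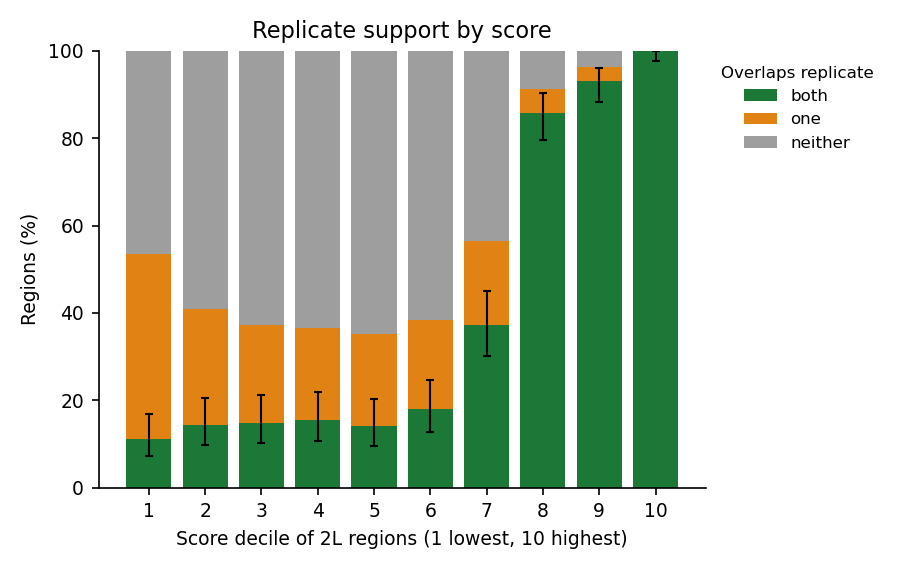
Share of 2L whole-series regions (percent) that both, one or neither replicate overlaps, in deciles of 161 or 162 regions by the authors' score, with Wilson 95% intervals on the share with both. The share with both stays at or below 18.0% up to the sixth decile and reaches 85.7% in the eighth.

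Regions that no replicate overlapped lay at a median distance of 3763 bp from the nearest replicate region. The median gap between neighbours in the whole-series list was 3710 bp, so this distance does not set them apart from the general spacing. The distance was at most 1 kb for 135 of the 667 (20.2%) and at most 5 kb for 390 (58.5%). A further 68 (10.2%) lay more than 20 kb from any replicate region. The 5 of them with the highest scores were narrow, between 1001 and 1234 bp. They were 2L:6426382-6427432 with a score of 0.90, 2L:9221972-9223112 with 0.87, 2L:20576010-20577010 with 0.84, 2L:14642228-14643461 with 0.76 and 2L:16279985-16281139 with 0.70. The first lay 991 and 918 bp from the nearest regions of replicates 1 and 2. The second lay 15539 and 44486 bp from them. On 2L the highest score without a replicate ranked 167, so by definition the 166 regions above it each overlapped at least one replicate.

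The strongest Pol II regions of 2L ranked high in both replicates. The highest score, 2.01, belonged to 2L:13546689-13551301, 4.61 kb wide, which scored 1.98 in replicate 1 and 2.07 in replicate 2 and ranked 2 in each. It also stood apart along the arm, with 32.2 kb free before it and 88.3 kb after it. The second, 2L:2749069-2756633, 7.57 kb wide, scored 2.11 and 1.86, and ranked 1 and 7. It had neighbours 110 and 29 bp away. The third, 2L:15760277-15763796, scored 1.96 and 2.25, and ranked 3 and 1. It was 3132 bp wide in replicate 1 and 2229 bp in replicate 2, and the 142 kb gap at 2L:15765727-15908191 began 1930 bp beyond its end.

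The next were 2L:17382875-17385767, with replicate scores of 1.66 and 1.84, and 2L:157950-162928, with 1.70 and 1.71. They were followed by 2L:20398234-20400470 with 1.80 and 1.59, and 2L:13877883-13880191 with 1.63 and 1.74. The last 3 of the 10 were 2L:20795874-20799451 with 1.63 and 1.93, 2L:1650207-1653077 with 1.48 and 1.83, and 2L:522073-524908 with 1.66 and 1.76. Replicate ranks of these 10 lay between 1 and 24 in replicate 1 and between 1 and 26 in replicate 2. All 10 overlapped a single region in each replicate. Of the 10, 2 lay beside a gap of more than 20 kb, against 49 of the 162 regions in the highest decile (30.2%) and 24.9% of all regions. High scores were thus found in crowded and in open stretches. The region 2L:1650207-1653077 was separated by 49 bp from the second widest domain of the arm, and one replicate 2 region overlapped both.

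Scores of single regions followed the same order in both replicates only in part. A set of 580 whole-series regions matched exactly one region in each replicate, which in turn matched no other. Over these, the Spearman rho of replicate scores was 0.77, their Pearson r 0.86, and the rho of replicate widths 0.62, as a description across regions. The median absolute difference in score was 0.12, and its 90th percentile was 0.30. The largest difference was found at 2L:5304564-5307458, with 1.16 in replicate 1 and 0.61 in replicate 2, where it ranked 98 and 544. Next were 2L:16737871-16740015, with 0.95 and 0.40, and 2L:15263471-15265726, with 0.87 and 1.41. Whole-series regions were wider than both of their replicate regions in 512 of the 580 cases (88.3%), with median widths of 2320 bp against 2080 and 2092 bp.

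**Figure D5:**
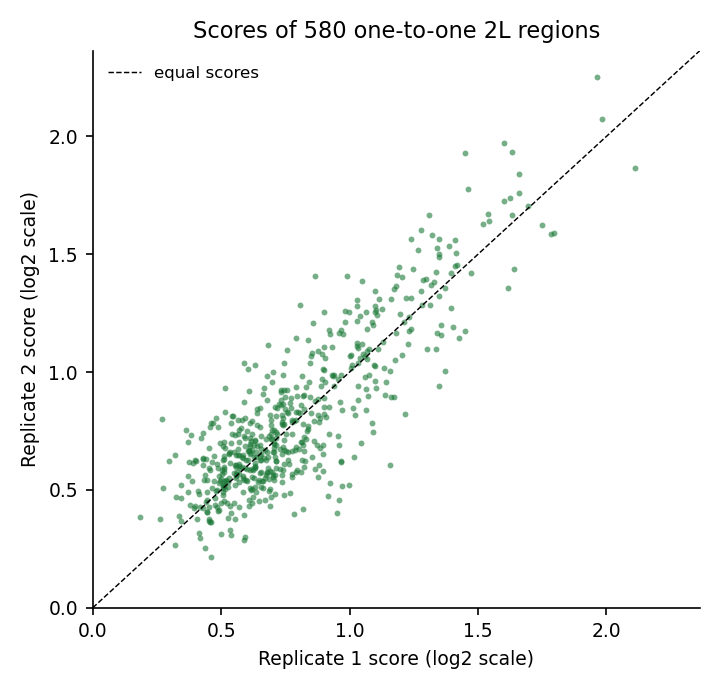
Authors' score in replicate 2 against replicate 1 (both on a log2 scale) for the 580 Pol II regions of 2L that match a single region in each replicate, with a dashed line of equal scores. Points follow the line, with a Pearson r of 0.86 and a median absolute difference of 0.12.

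Compared directly, without the whole-series list, the replicates shared most of their 2L regions. In replicate 1, 693 of 851 regions (81.4%, Wilson interval 78.7 to 83.9) had a partner in replicate 2. In replicate 2, 692 of 861 (80.4%, interval 77.6 to 82.9) had one in replicate 1. Regions of one replicate alone numbered 158 and 169. Their median widths were 1569 and 1592 bp, against 2099 and 2104 bp for shared regions, and their median scores 0.61 and 0.57 against 0.72 in both replicates. The highest score of a region of one replicate alone was 0.97 in replicate 1 and 1.06 in replicate 2.

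Arm 2L was set beside 3L, 3R and the X, limited in the same way at their centromere ends. Its regions were sparser, with 40.5 and 41.0 per Mb in the replicates, against 45.8 and 44.8 on 3L, 42.3 and 42.6 on 3R, and 42.4 and 42.7 on the X. The difference was larger than the spread between replicates in each case. A larger share of them was shared between replicates, 80.9% ± 0.8 (SD, n = 2) on 2L, against 74.7% and 75.4% on 3L, 77.4% and 76.8% on 3R, and 76.0% and 75.7% on the X. Between 2L and 3L the Wilson intervals did not overlap in replicate 1 and did in replicate 2. Between 2L and 3R or the X they overlapped in both, though for the X in replicate 1 the ends only met, at 78.7%. The intervals treat regions as independent and cover counting error only, so their overlap is no test of a difference between arms. Median widths of replicate regions were alike, 2033 and 2059 bp on 2L against 2008 to 2060 bp on the other 3 arms. Median scores on 2L, 0.68 and 0.67, were close to those of 3L and 3R, from 0.67 to 0.68, and below those of the X, 0.78 and 0.75. All arms were read in the same 2 libraries, so the values of the arms are paired. With 2 pairs a test could not decide on a difference, and no test was made.

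The limit at 2 Mb from the centromere end fell in an open stretch. The last 3 regions inside it, 2L:20985969-20987210, 2L:20987811-20988950 and 2L:21008135-21009141, scored 0.34, 0.46 and 0.46 and overlapped no replicate region. The first region outside, 2L:21050787-21054143, scored 1.19 and overlapped both replicates. The next 2, 2L:21055822-21057482 and 2L:21057969-21059335, scored 0.29 and 0.40, and of them the first overlapped replicate 1. Beyond the limit the whole-series list held 96 regions, or 48.0 per Mb, and their medians were 1800 bp in width and 0.44 in score.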

How the data were processed

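The submitters' processing notes name Bowtie 0.12.7, and per the file headers the genome was FlyBase release 5. The authors deposited 3 lists of regions, one per ChIP replicate and one for the replicate set. Not given in the sources used here are the region caller, its threshold and filters, and how replicates were joined. Each row holds a first and last base, counted from 1, and a score. The deposited score is on a log2 scale, which was read from the values: of 190 differences between the 20 most repeated scores, 46 in replicate 1 equalled a log2 ratio of whole numbers up to 32 within 1e-06, and none a natural or base-10 logarithm. Scores were used within a list, or side by side for matched regions. The inputs have no values of their own here.

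Regions overlapped when they shared at least 1 bp. Gaps are bases between neighbours. Shares carry Wilson 95% intervals, medians binomial ones. Replicates were compared as 2 values with their SD, and no test was made. Interval functions were tested on simulated data. Named regions were the 10 highest-scoring with both replicates, the 5 highest-scoring with neither, the 10 widest, the 5 longest gaps, the 5 densest and 5 emptiest windows of 500 kb by replicate mean, the 3 highest-scoring replicate regions without a whole-series region, and 3 on each side of the limit. Other regions, runs and windows that the text names were chosen after their values were seen. Members and lists were chosen with earlier results of these data known. Scripts ran in Python 3.11.15 with pandas 2.3.3, numpy 2.4.6 and scipy 1.17.1, and figures were drawn with matplotlib 3.10.9.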

Additional observations from a re-analysis of the deposited data

How the results depend on the processing

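Of 39 densities, medians and shares recomputed under alternatives, 14 stayed within the replicate SD or the interval of the reported value and 25 moved. Of 5 recomputed member counts, 4 stayed within 1.5 times the 1612 reported, from 1213 to 1677. With the limit at 1 Mb, density was 76.2 per Mb and coverage 17.4%. With the limit at 3 Mb, density was 76.3 per Mb. A score at or above its list's median left 718 members, 34.2 per Mb, 10.1% covered, a width median of 2294 bp, a median gap of 13095 bp, 36.1% with neither replicate and 75.7% shared between replicates. Keeping whole-series regions of at least 1301 bp gave 57.7 per Mb, 15.4% covered, a width median of 2123 bp, a median gap of 5732 bp, a median score of 0.47, 53.8% with both replicates and 24.1% with neither. Merging within 500 bp gave 66.6 per Mb, a width median of 2058 bp and a median gap of 4806 bp. Reciprocal overlap of 50% gave 34.2% with both, 45.7% with neither and 73.5% shared, and extension by 500 bp gave 43.5%, 37.3% and 82.7%. Filters and stricter overlap lower counts by construction, and other causes were not tested. Leaving out a replicate leaves the other one's values, 40.5 to 41.0 per Mb and a median width of 2033 to 2059 bp. Windows of 250 kb and 1 Mb gave a rho of 0.85 each. No paired analysis was possible because the inputs have no values here and a single group remains. Depth is unknown, so its limits cannot be given.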

Other observations

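Replicate 1 held 8 regions on the stretch that no whole-series region overlapped, and replicate 2 held 1. All 9 also lacked a partner in the other replicate. The 3 with the highest scores were all from replicate 1, at 2L:19619446-19620942 with a score of 0.97, 2L:9989787-9991169 with 0.83 and 2L:6527929-6529357 with 0.83. They ranked 170, 254 and 256 of 851 by score, and the nearest whole-series region was 11818, 4042 and 4614 bp away. The region of replicate 2 was 2L:5180525-5181836, with a score of 0.53.

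A single score of 0.3929 was repeated in 32 of the 1612 whole-series regions on 2L, and in 109 of the 9885 regions of that list. The next most frequent score on 2L occurred 4 times. The 32 regions were 1040 to 2681 bp wide, and neither replicate overlapped 24 of them. Neither overlapped 41.4% of all 1612 regions, and 101 of 161 (62.7%) in the third score decile, which holds this score. The difference was not tested.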
